A study of Mus musculus with 15 samples.

Results

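The genes described here are 36 genes of the male germ line, chosen by name for their known expression in testis. All 36 were found among the 50600 genes of the tables. RNA was sequenced from epithelial cells sorted by flow cytometry from thymus, skin, colon and lung of C57BL/6J mice. There were 5 groups with 3 libraries each. The thymus gave cortical epithelium (cTEC) and medullary epithelium (mTEC), and skin, colon and lung gave 1 epithelial group each, called extrathymic together. All donors were males aged 8 weeks for which no treatment, allele or transgene is named, and the cells of 5 mice were pooled for each library. The study asked what underlies differences in MHC class I display between epithelia. Each group has n = 3 pools, and p-values measure the spread between these pools.

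Germ cell genes are switched on in the testis, where germ cells pass from stem cell to meiosis and then to sperm, and most are silent in other adult tissues. Medullary thymic epithelium is an exception: it transcribes at low levels many genes that belong to single organs, the testis among them, and presents their peptides to developing T cells. AIRE and FEZF2 are nuclear proteins known to drive much of this expression. Cortical epithelium presents peptides for the first, positive step of T cell selection and is not known for AIRE-driven expression.

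The 15 libraries held between 12946533 and 41978665 reads in genes, with skin the shallowest group and lung the deepest. Levels below are CPM, the reads of a gene scaled by TMM to a common library size, and TPM where genes are compared with each other per length. The groups carried their defining markers: in the 10 markers of skin, colon and lung epithelium the labelled tissue summed to at least 12999 CPM and no other group to more than 236 CPM. Aire was at 613, 242 and 587 CPM in mTEC and at 39.4, 26.4 and 67.1 CPM in cTEC, and at no more than 1.86 CPM in any library of the other groups. Prss16, a cortical protease, was at 1685, 1313 and 4884 CPM in cTEC and at no more than 155 CPM elsewhere. Library kits were KAPA RNA Stranded for thymus and skin but KAPA RNA HyperPrep for colon and lung, so that the kit and these tissues cannot be told apart, and mTEC or cTEC against skin is the comparison within one kit. Skin replicates 1 and 2 stood apart from thymus: 46.9%, 35.4% and 31.8% of the reads of the skin libraries lay outside genes, against 26.4% to 31.2% in thymus, and sense reads were 8.43, 13.0 and 17.0 times the opposite ones, against 17.5 to 19.3 times in thymus. In sorted pools, fewer cells that carry a transcript and less of it per cell cannot be told apart either.

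More germ cell genes were read in mTEC than in any other group. At least 1 read was found for 33, 30 and 35 of the 36 genes in mTEC replicates 1 to 3, for 29, 23 and 14 in cTEC, for 6, 11 and 9 in skin, for 17, 20 and 17 in colon and for 20, 22 and 19 in lung. The lowest mTEC library was above the highest library of every other group, by 1 gene over cTEC replicate 1 and by 8 over lung replicate 2. The cTEC libraries overlapped those of colon and lung, and all 3 were above skin. Colon and lung were sequenced more deeply, so the expected number of genes at the depth of the smallest library was computed as well. It was 32.7, 29.5 and 33.5 in mTEC, 27.0, 21.6 and 14.0 in cTEC, 6, 11 and 8.98 in skin, 13.4, 14.8 and 14.6 in colon and 15.7, 15.7 and 15.5 in lung. At that depth mTEC also read more of all 21764 protein-coding genes, 82.7% to 85.9%, against 70.6% to 78.8% in cTEC, 61.4% to 66.9% in skin, 69.8% to 71.5% in colon and 70.4% to 70.8% in lung. The germ cell genes thus ran from 16.7% in a skin library to 93.2% in an mTEC library. Protein-coding genes as a whole were not matched to them in level, so that the widths of the spans cannot be compared.

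**Figure D1:**
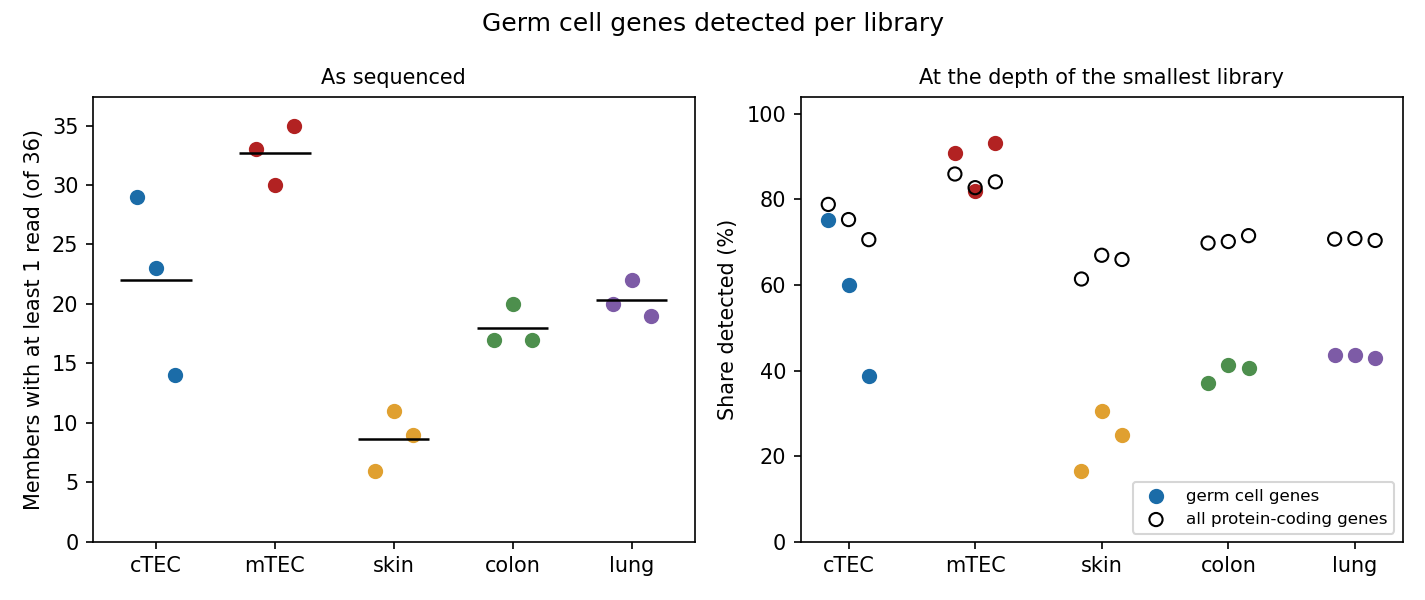
Left, number of the 36 germ cell genes with at least 1 read in each library (points, 3 pools per group; line, mean); right, percentage of the germ cell genes (filled) and of all protein-coding genes (open) expected at the depth of the smallest library. The 3 mTEC libraries hold 30 to 35 germ cell genes and the 3 skin libraries 6 to 11, and the open points span 61.4% to 85.9%.

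Reads in all 3 libraries of a group were found for 30 genes in mTEC, 12 in cTEC, 5 in skin, 14 in colon and 17 in lung. No read in any library of the group was found for 1, 6, 22, 13 and 12 genes, in the same order. Pgk2, the phosphoglycerate kinase of sperm, was the 1 gene without a read in all 15 libraries, which allows a level of up to 0.0493 CPM over the mTEC libraries (3 reads, counting error only). A set of 9 genes had no read in the 9 libraries of skin, colon and lung, and 8 of them were read in mTEC. Of these 8, Piwil1, Hormad1, Prm2, Acrv1 and Tex101 were read in every mTEC library. Tnp1, Odf1 and Catsper1 were read in 2 libraries or fewer. Over all libraries Tex101 had 12 reads on its own strand and 12 on the opposite one, and Hormad1 had 8 and 7. In cTEC 5 of the 9 were read, namely Piwil1, Tnp1, Prm2, Acrv1 and Tex101. The mean CPM was highest in mTEC for 22 genes, in lung for 5, in cTEC for 3, in colon for 3 and in skin for 2. The shares over all genes were not computed for these counts, and mTEC also read more of all protein-coding genes.

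The summed level of the 36 genes was low in every group. It was 52.1, 28.5 and 34.2 CPM in mTEC, 22.1, 14.3 and 23.4 CPM in cTEC, 9.98, 5.48 and 23.3 CPM in skin, 12, 9.87 and 10.6 CPM in colon, and 34.1, 37.3 and 34.8 CPM in lung. In this sum mTEC and lung overlapped, although lung had fewer genes. Per length, 2 genes made up most of the lung sum: Tex15 gave 47.2% and Sycp1 24.6% of the 14.6 TPM of the 36 genes. In mTEC the sum was 36.4 TPM and the highest genes were Stra8 with 6.53 TPM, Tex14 with 5.85 TPM and Tnp2 with 4.72 TPM, where Stra8 made up 18% of it. In cTEC the sum was 15.6 TPM, led by Brdt with 3.28 TPM and Meiob with 2.43 TPM. The skin sum of 6.56 TPM was led by Gapdhs and Piwil2, and the colon sum of 4.42 TPM by Brdt and Tdrd1.

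Promoters are shown for 5 genes because they differ in the features that silence germ line genes outside the germ line. DNA methylation at CpG dinucleotides, the factor E2F6, which binds TCCCGC, and MGA with MAX, which bind the E-box CACGTG, are known to hold many meiotic genes silent in somatic cells. RefSeq promoters (GRCm38.p6) were found for 27 of the 36 genes, and the 250 bases before the start are printed 5′ to 3′ on the strand of the gene, with TCCCGC and CACGTG in capitals. Tdrd9 (chr12:111971309-111971558, plus strand) and Tex14 (chr11:87404815-87405064, plus strand) are early genes that were high in mTEC, Sycp1 (chr3:102936101-102936350, minus strand) is an early gene that was high in lung, and Acrv1 (chr9:36692970-36693219, plus strand) and Tnp2 (chr16:10788656-10788905, minus strand) are genes of maturing sperm that were high in mTEC.
Tdrd9: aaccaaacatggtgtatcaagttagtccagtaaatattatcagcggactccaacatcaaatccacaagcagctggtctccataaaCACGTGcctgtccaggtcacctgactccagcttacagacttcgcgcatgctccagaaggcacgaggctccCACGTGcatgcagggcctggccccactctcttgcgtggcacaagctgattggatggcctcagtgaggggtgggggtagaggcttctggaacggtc
Tex14: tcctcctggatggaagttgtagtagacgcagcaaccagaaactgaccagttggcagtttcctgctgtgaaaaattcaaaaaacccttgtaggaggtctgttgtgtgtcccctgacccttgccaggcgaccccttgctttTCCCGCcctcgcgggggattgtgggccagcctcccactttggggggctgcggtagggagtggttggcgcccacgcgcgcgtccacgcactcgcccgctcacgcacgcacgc
Sycp1: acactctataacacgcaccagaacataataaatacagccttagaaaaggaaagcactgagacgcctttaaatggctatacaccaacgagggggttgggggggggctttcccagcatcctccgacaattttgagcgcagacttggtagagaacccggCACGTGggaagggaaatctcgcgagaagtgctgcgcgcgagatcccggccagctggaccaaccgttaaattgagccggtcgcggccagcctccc
Acrv1: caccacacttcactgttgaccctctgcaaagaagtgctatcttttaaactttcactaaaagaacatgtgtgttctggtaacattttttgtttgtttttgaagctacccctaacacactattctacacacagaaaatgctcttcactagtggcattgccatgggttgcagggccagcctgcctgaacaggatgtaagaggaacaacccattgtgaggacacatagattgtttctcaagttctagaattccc
Tnp2: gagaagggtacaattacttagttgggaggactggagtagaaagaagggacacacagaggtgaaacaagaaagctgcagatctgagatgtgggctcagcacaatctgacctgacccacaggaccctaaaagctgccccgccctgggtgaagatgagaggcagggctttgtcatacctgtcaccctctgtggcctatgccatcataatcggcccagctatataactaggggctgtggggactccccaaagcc

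The E-box CACGTG, which reads the same on both strands, stands in 10 of the 27 promoters (37.0%) and in 6.05% of the 27025 RefSeq promoters of the same length. TCCCGC, searched on both strands, stands in 7 of the 27 (25.9%) and in 16.9% of all promoters. The 2 motifs can share at most 1 letter where they adjoin. Early genes and sperm genes differed within the set. Promoters of the 15 genes of germ plasm, meiosis, synaptonemal complex and intercellular bridge held a median of 16 CpG, with CACGTG in 53.3% and TCCCGC in 46.7%. Promoters of the 12 genes of sperm chromatin, acrosome, surface and glycolysis held a median of 2.5 CpG, with CACGTG in 16.7% (Brdt and Spata16) and TCCCGC in none. The median over all promoters was 6 CpG. Among promoters with at least 10 CpG, CACGTG stood in 57.1% of the 14 germ cell genes and in 9.49% of all 10328. TCCCGC stood in 50% of these 14 and in 37.2% of the 10328, so that its shares lay closer together at like CpG content. These are matches of letters in a window of 250 bases and were not tested for binding.

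**Figure D2:**
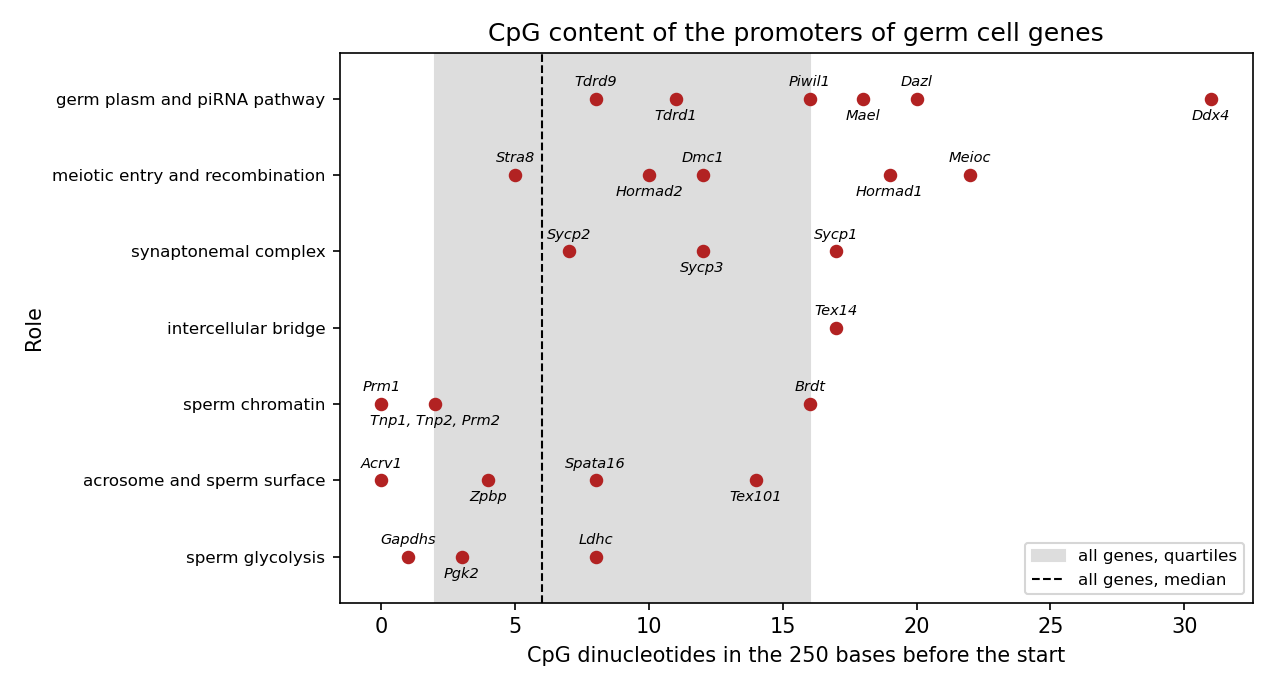
CpG dinucleotides in the 250 bases before the start (horizontal axis) of each of the 27 germ cell genes with a RefSeq promoter, by role (vertical axis); the dashed line is the median of all 27025 promoters and the grey band their quartiles. Genes of the germ plasm, meiosis and synaptonemal complex lie at 5 to 31 CpG, and genes of sperm chromatin, acrosome and glycolysis at 0 to 16.

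Germ cell genes were mostly higher in mTEC than in the extrathymic epithelia, and 18 of the 36 held enough reads for a test. In the edgeR quasi-likelihood test of mTEC against the mean log2 level of skin, colon and lung, 13 were higher (background 35.4% of all 19107 genes tested) and 1 was lower (background 23.4%) at an adjusted p under 0.05. The 13 were Tdrd1, Tdrd9, Stra8, Spo11, Dmc1, Meiob, Tex11, Tex14, Tnp2, Acrv1, Zpbp, Ldhc and Gapdhs, and Tex15 was the 1 that was lower. Dazl, Piwil2, Sycp1 and Brdt did not pass. The median log2 fold change of the 18 was 3.63, or 3.08 with groups without reads set at the floor of 3 reads, against 0.16 and 0.13 over all genes tested. Since a gene passed the filter on low counts through the group in which it was high, these counts and medians describe the 18 and not all 36. Over all 36 genes, the 3 mTEC libraries lay above all 9 extrathymic libraries for 14 (38.9%; background 14.3% of genes with any read). Of these 14, 7 were among the 13 called and 7 had too few reads for the test: Ddx4, Piwil1, Hormad1, Sycp2, Prm1, Prm2 and Tex101. Without the filter on low counts 35 genes could be tested, and 23 were higher (background 28.6%) and none lower (background 10.2%). The other 6 of the 13 called genes overlapped at least 1 extrathymic library, so that their call rests on the mean over 3 tissues and not on each tissue.

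In cTEC against the same extrathymic libraries 11 of the 18 were higher (background 33.4%) and 1, Tex15, was lower (background 24.8%). The 11 were Tdrd1, Stra8, Spo11, Dmc1, Meiob, Tex14, Brdt, Tnp2, Acrv1, Zpbp and Ldhc. The Acrv1 call rests on 5 cTEC reads. It was lost in the DESeq2 test (adjusted p = 0.103, DESeq2) and without cTEC replicate 1 (adjusted p = 0.126, edgeR). The median log2 fold change of the 18 was 2.51, or 1.75 with the floor, against 0.14 and 0.09 over all genes. Only Stra8, Spo11 and Brdt had all 3 cTEC libraries above all 9 extrathymic ones, 8.33% of the 36 (background 8.72%), which is near the background. Without the filter 10 of 35 genes were higher (background 21.6%), a share closer to the background than with the filter, and 1 was lower (background 12.1%). Markers of the medulla were read in cTEC as well: 10 of the 13 mTEC markers were higher there than in the extrathymic mean and 2 were lower, with a median log2 difference of 4.79. Ccl21a, a medullary chemokine, was at 904, 1145 and 500 CPM in cTEC and 1362, 2066 and 1801 CPM in mTEC, and Csn2, a milk casein, at 31.9, 18.9 and 37.3 and 288, 110 and 178 CPM. The part of medullary cells in the cTEC values was not tested. The comparisons of mTEC and of cTEC share their 9 extrathymic libraries.

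**Figure D3:**
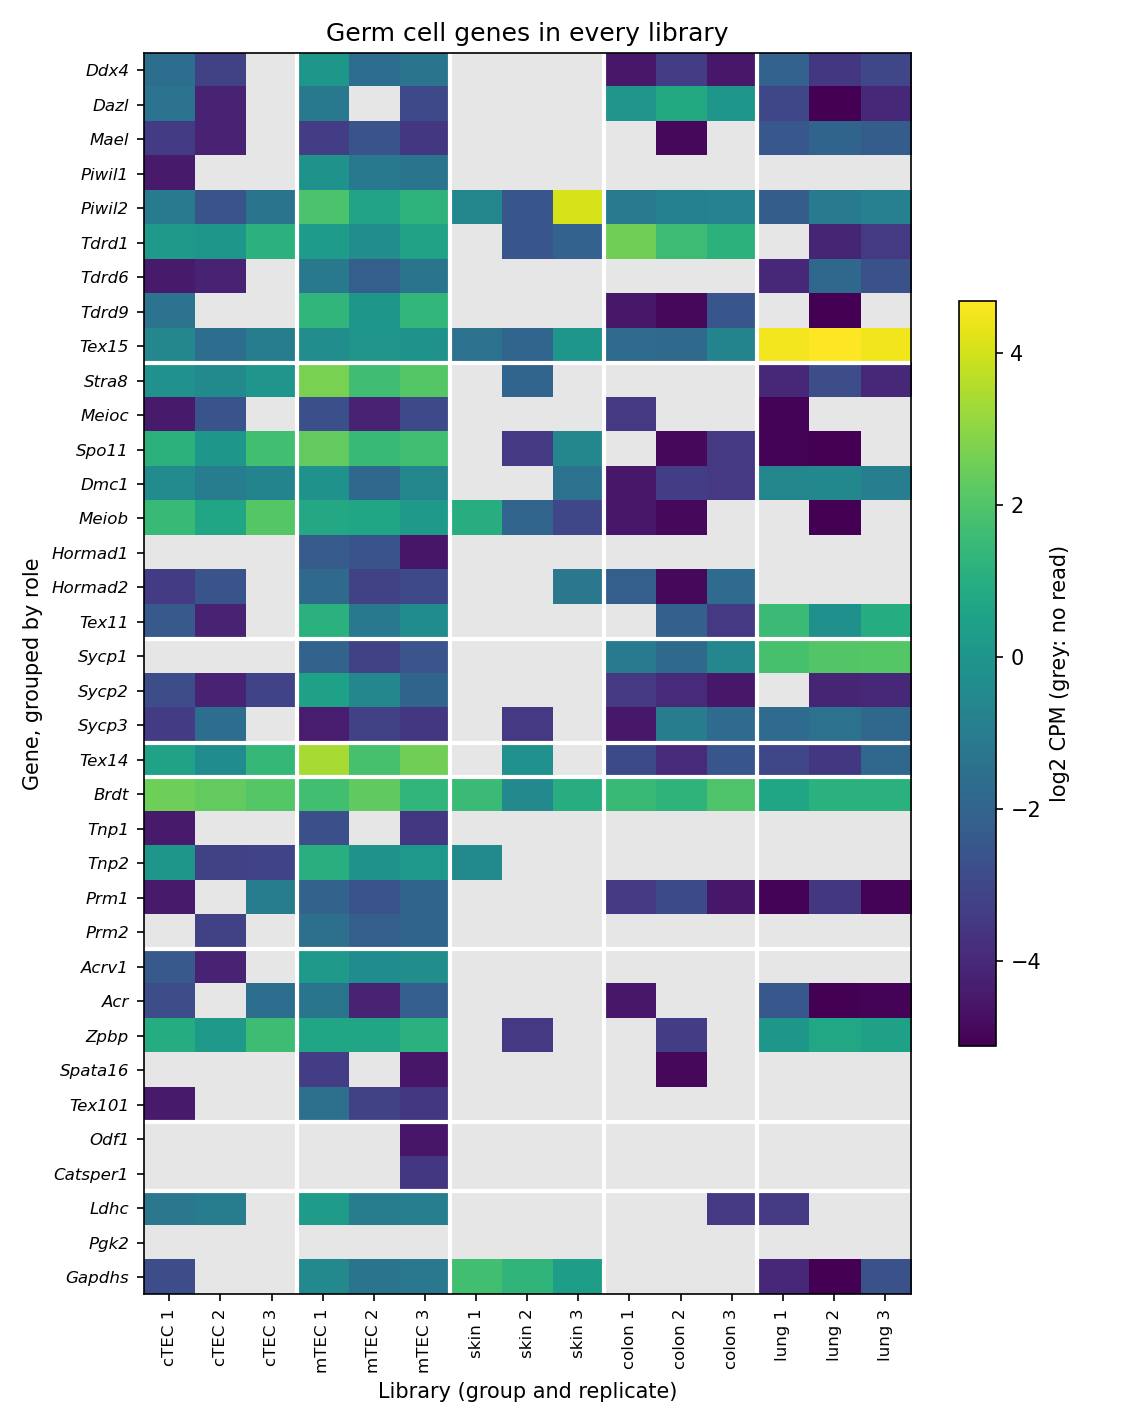
Level of each of the 36 germ cell genes (rows, ordered by role, white lines between roles) in each library (columns, 3 pools per group) as log2 CPM; grey marks no read. The mTEC columns are filled for 30 genes in all 3 libraries, the skin columns for 5, and Tex15 and Sycp1 are high in the 3 lung columns.

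The germ plasm and piRNA pathway protects the germ line genome, with PIWI proteins that bind piRNAs, Tudor proteins that hold them, and the RNA helicase DDX4. Of its 9 genes, 8 were read in all mTEC libraries, 3 in all cTEC, 2 in all skin and 6 each in all colon and lung libraries. Tdrd9, a helicase that silences transposons, was at 2.51, 1.06 and 2.60 CPM in mTEC. It had 8, 0 and 0 reads in cTEC, 0, 0 and 0 in skin, 1, 1 and 4 in colon and 0, 1 and 0 in lung. Every mTEC library was above every other library. The pooled level in mTEC was 64.4 times (95% interval 30.4 to 163) that of the extrathymic libraries (adjusted p = 3.49e-05, edgeR) and 15.1 times (95% interval 7.42 to 35.6) that of cTEC (adjusted p = 0.0189, edgeR). Such intervals are exact binomial ones on reads and cover counting error only.

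Piwil1, the PIWI protein of meiotic and later cells, had 19, 8 and 9 reads in mTEC, 1 in cTEC and none in the 9 extrathymic libraries. Its pooled mTEC level was 41.9 times the floor of 3 reads in the extrathymic libraries. Ddx4 had 21, 6 and 9 reads in mTEC and 8, 3 and 4 in lung, at most 3 in a colon library and none in skin, with a pooled mTEC level 6.29 times (95% interval 3.54 to 11.5) the extrathymic one. Tdrd6 had 22 reads in mTEC, 17 in lung, 2 in cTEC and none in skin or colon. Mael had its highest mean in lung, with 6, 9 and 7 reads, against 2, 3 and 2 in mTEC.

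Piwil2, the PIWI protein of germ line stem cells, was at 3.77, 1.51 and 2.34 CPM in mTEC, 0.476, 0.167 and 0.392 CPM in cTEC, 0.659, 0.177 and 17.2 CPM in skin, 0.492, 0.567 and 0.580 CPM in colon and 0.215, 0.463 and 0.557 CPM in lung. Skin replicate 3 held 283 of the 292 skin reads and was the highest library of all. The mTEC libraries were above those of cTEC, colon and lung, and overlapped skin. The log2 difference of mTEC from the extrathymic mean was 1.19 ± 0.79 (SE) and did not pass (adjusted p = 0.210, edgeR). With skin left out of the contrast it was 2.41 ± 0.86 (SE; adjusted p = 0.0243, edgeR). The 10 cell cycle genes summed to 1031 CPM in skin replicate 3 and to 274 and 392 CPM in the other skin libraries, and their part in the Piwil2 value was not tested.

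Tdrd1, a Tudor protein of the piRNA granule, was highest in colon, at 5.91, 3.03 and 2.27 CPM. It was at 1.14, 1.06 and 2.18 CPM in cTEC, 1.21, 0.837 and 1.43 CPM in mTEC, 0, 0.177 and 0.243 CPM in skin and 0, 0.0579 and 0.0928 CPM in lung. All colon libraries were above all mTEC and cTEC libraries, and all thymic libraries were above skin and lung. The log2 difference of mTEC from the extrathymic mean was 1.87 ± 0.53 (SE) (adjusted p = 0.00730, edgeR), whereas the pooled mTEC level was 0.883 times (95% interval 0.672 to 1.15) the pooled extrathymic level. The call therefore holds against the mean of log levels and not against colon.

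Dazl, an RNA-binding protein of early germ cells, was also highest in colon. It was at 0.985, 1.77 and 1.03 CPM there, at 0.452, 0 and 0.130 CPM in mTEC, 0.381, 0.0557 and 0 CPM in cTEC and 0.123, 0.0289 and 0.0619 CPM in lung, with no read in skin. All colon libraries were above all others, and mTEC replicate 2 and cTEC replicate 3 held no read.

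Tex15, a protein that guides transposon silencing, was by far the highest of the 36 genes in lung. It was at 22.6, 25.6 and 22.3 CPM in lung, against 0.804, 1.0 and 0.954 CPM in mTEC, 0.666, 0.334 and 0.504 CPM in cTEC, 0.376, 0.265 and 1.03 CPM in skin and 0.313, 0.30 and 0.624 CPM in colon. The lung libraries stood apart from all others, and mTEC overlapped skin, whose replicate 3 was above the 3 mTEC libraries. The log2 difference of mTEC from the extrathymic mean was -0.95 ± 0.36 (SE) (adjusted p = 0.0353, edgeR), a call lost in 11 alternatives, and that of cTEC was -1.81 ± 0.40 (SE) (adjusted p = 0.00122, edgeR). The 12 markers of ciliated cells, all of them read in lung, summed to 1853 to 1990 CPM in lung and to 74.5 to 363 CPM in the libraries of the other groups. Their part in the lung values of Tex15 and Sycp1 was not tested.

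The genes of meiotic entry and recombination were read throughout mTEC. All 8 were read in all 3 mTEC libraries, against 4 in cTEC, 1 in skin, 2 in colon and 3 in lung. Stra8, which germ cells need to enter meiosis under retinoic acid, was at 6.53, 3.24 and 4.25 CPM in mTEC and 0.904, 0.724 and 1.01 CPM in cTEC. It was at 0, 0.265 and 0 CPM in skin, 0.0615, 0.145 and 0.0619 CPM in lung and had no read in colon. The order mTEC, cTEC, extrathymic held without overlap of libraries. The pooled mTEC level was 83.3 times (95% interval 46.9 to 163) the extrathymic one (adjusted p = 5.62e-07, edgeR), and its log2 difference from cTEC was 2.40 ± 0.65 (SE) (adjusted p = 0.0184, edgeR). The pooled cTEC level was 15.6 times (95% interval 8.19 to 32.2) the extrathymic one (adjusted p = 6.40e-05, edgeR).

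Spo11, the enzyme that cuts DNA to start recombination, was at 4.98, 2.85 and 3.30 CPM in mTEC and 2.28, 1.06 and 3.30 CPM in cTEC. It was at 0, 0.0884 and 0.667 CPM in skin, 0, 0.0333 and 0.0892 CPM in colon and 0.0308, 0.0289 and 0 CPM in lung. The thymic groups overlapped each other, and all 6 of their libraries lay above the 9 others. The log2 difference from the extrathymic mean was 5.73 ± 0.62 (SE) in mTEC (adjusted p = 2.04e-06, edgeR) and 4.99 ± 0.64 (SE) in cTEC (adjusted p = 1.03e-05, edgeR).

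Meiob, which coats single strands during recombination, was highest in cTEC. It was at 2.86, 1.62 and 4.26 CPM in cTEC, 1.76, 1.62 and 1.13 CPM in mTEC, 1.98, 0.265 and 0.121 CPM in skin, 0.0448, 0.0333 and 0 CPM in colon and 0, 0.0289 and 0 CPM in lung. Skin replicate 1 held 21 of the 26 skin reads and overlapped both thymic groups. The log2 difference from the extrathymic mean was 5.32 ± 0.67 (SE) in cTEC (adjusted p = 9.32e-06, edgeR) and 4.37 ± 0.69 (SE) in mTEC (adjusted p = 7.49e-05, edgeR), and cTEC and mTEC did not differ past the threshold (adjusted p = 0.380, edgeR).

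Dmc1, the meiotic recombinase, was at 0.955, 0.279 and 0.651 CPM in mTEC, 0.762, 0.501 and 0.616 CPM in cTEC, 0, 0 and 0.364 CPM in skin, 0.0448, 0.10 and 0.0892 CPM in colon and 0.646, 0.694 and 0.526 CPM in lung. Lung and both thymic groups overlapped, and colon was below them. Its differences from the extrathymic mean were small, 1.68 ± 0.60 (SE) in mTEC (adjusted p = 0.0264, edgeR) and 1.67 ± 0.61 (SE) in cTEC (adjusted p = 0.0283, edgeR). The calls were lost in 4 and 5 alternatives.

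Tex11, an X-linked gene of meiotic recombination, separated the thymic groups. It was at 2.21, 0.447 and 0.781 CPM in mTEC, 0.190, 0.0557 and 0 CPM in cTEC, 0, 0.233 and 0.0892 CPM in colon and 2.95, 0.868 and 1.95 CPM in lung, with no read in skin. The mTEC libraries were above those of cTEC, skin and colon and overlapped lung. The pooled mTEC level was 13.1 times (95% interval 5.34 to 41.5) that of cTEC (adjusted p = 0.0274, edgeR) and 1.24 times (95% interval 0.927 to 1.63) that of the extrathymic libraries, against whose mean of log levels it was called higher (adjusted p = 0.00625, edgeR). Hormad1 and Hormad2 mark unpaired chromosome axes and Meioc keeps cells in meiosis. Hormad1 had 4, 3 and 1 reads in mTEC and none in the other 12 libraries, while Hormad2 and Meioc had at most 7 reads in any library.

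The synaptonemal complex zips paired chromosomes together. Its 3 genes differed in where they were read. Sycp1, the transverse filament, was at 3.57, 4.19 and 4.27 CPM in lung, 0.492, 0.30 and 0.669 CPM in colon and 0.251, 0.112 and 0.174 CPM in mTEC, with no read in cTEC or skin. All lung libraries were above all colon libraries, and these above all mTEC libraries. Its pooled extrathymic level was 38.7 times the floor of 3 reads in cTEC. In mTEC its 11 reads against 0 in cTEC were called higher (adjusted p = 0.0103, edgeR), at 3.42 times the floor of 3 reads. Sycp2, of the lateral element, had 28, 12 and 6 reads in mTEC, 6 in cTEC, 5 in colon, 4 in lung and none in skin. Its pooled mTEC level was 17.9 times (95% interval 8.63 to 41.5) the extrathymic one. Sycp3, also of the lateral element, had 69 reads in all against 3353 on the opposite strand, where Chpt1 overlaps it. That is 2.06%, while over all genes the opposite strand held 5.19% to 11.9% of the sense reads, so that reads of Sycp3 cannot be told apart from reads placed on the wrong strand.

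Tex14 keeps the bridges between germ cells open. It was at 10.5, 3.57 and 5.90 CPM in mTEC, 1.43, 0.780 and 2.69 CPM in cTEC, 0, 0.884 and 0 CPM in skin, 0.134, 0.0667 and 0.178 CPM in colon and 0.123, 0.0868 and 0.279 CPM in lung. The mTEC libraries were above all others, and cTEC overlapped skin through the 10 reads of skin replicate 2. Its log2 difference from the extrathymic mean was 5.19 ± 0.65 (SE) in mTEC (adjusted p = 8.07e-06, edgeR) and 3.16 ± 0.68 (SE) in cTEC (adjusted p = 0.00111, edgeR). Between mTEC and cTEC it was 2.03 ± 0.82 (SE), without overlap of libraries and short of the threshold (adjusted p = 0.0867, edgeR).

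**Figure D4:**
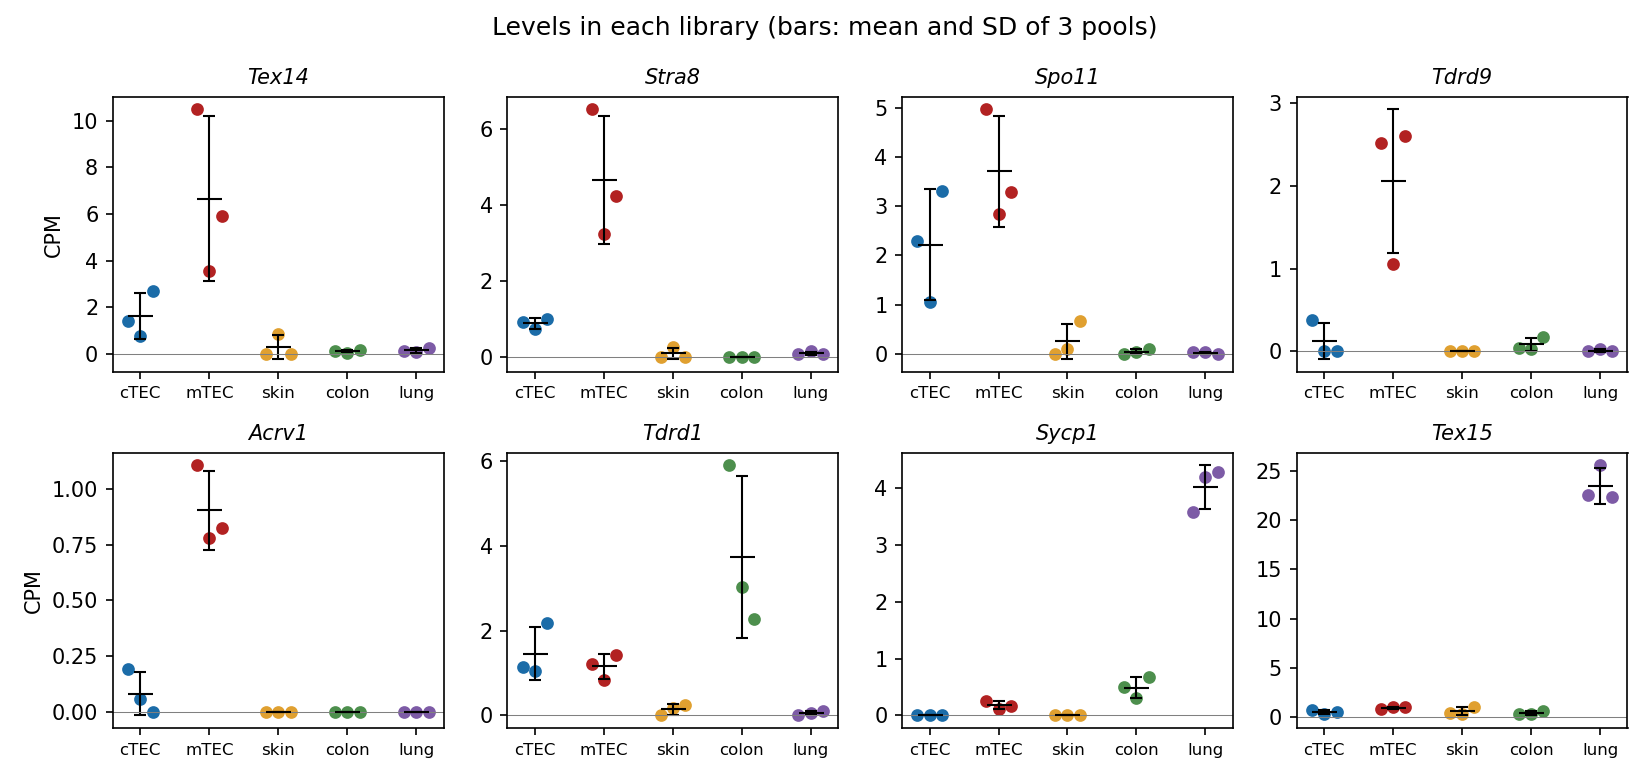
CPM (linear axes, a scale for each panel) of 8 germ cell genes in each library, with points for the 3 pools of a group and bars for mean and SD. Tex14, Stra8, Tdrd9 and Acrv1 are highest in the 3 mTEC libraries, Spo11 is shared by mTEC and cTEC, Tdrd1 is highest in colon, and Sycp1 and Tex15 are highest in lung.

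Sperm chromatin is packed by transition proteins and then protamines, and BRDT is the bromodomain protein of this step. Brdt was read in every library, at 5.71, 5.07 and 4.26 CPM in cTEC, 3.32, 4.91 and 2.52 CPM in mTEC, 2.92, 0.707 and 2.0 CPM in skin, 2.91, 2.40 and 3.97 CPM in colon and 1.60, 2.20 and 2.20 CPM in lung. All cTEC libraries were above all extrathymic ones, with a log2 difference of 1.15 ± 0.34 (SE) (adjusted p = 0.00905, edgeR), and mTEC overlapped both. Tnp2 was at 2.01, 0.949 and 1.08 CPM in mTEC and 1.05, 0.111 and 0.112 CPM in cTEC. It had 8, 0 and 0 reads in skin and none in colon or lung. In cTEC 22 of its 26 reads came from replicate 1, and all mTEC libraries were above all extrathymic ones. The pooled mTEC level was 35.8 times (95% interval 17.3 to 85.7) the extrathymic one (adjusted p = 0.000802, edgeR). Prm2 had 7, 4 and 6 reads in mTEC, 2 in cTEC and none elsewhere, a pooled mTEC level 19.8 times the floor of 3 reads outside the thymus. Prm1 had 14 reads in mTEC, 10 in cTEC, 12 in colon and lung together and none in skin, and Tnp1 had 5 in mTEC and 1 in cTEC.

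The acrosome is the vesicle with which sperm meet the egg. Acrv1, one of its proteins, had 22, 14 and 19 reads in mTEC, 4, 1 and 0 in cTEC and none in the 9 other libraries. It was at 1.11, 0.782 and 0.824 CPM in mTEC, and was called higher there than in the extrathymic mean (adjusted p = 0.000104, edgeR). Its pooled mTEC level was 64 times the floor of 3 reads in the extrathymic libraries. It was 10.3 times (95% interval 4.14 to 32.9) the level in cTEC (adjusted p = 0.0319, edgeR). With cTEC and mTEC libraries paired by replicate number, this call was lost (adjusted p = 0.0549, edgeR). Zpbp, which binds the egg coat, was shared by thymus and lung. It was at 1.95, 1.11 and 3.08 CPM in cTEC, 1.56, 1.62 and 2.21 CPM in mTEC and 1.05, 1.65 and 1.39 CPM in lung, with 1 read in skin and 3 in colon. These 3 groups overlapped. The log2 difference from the extrathymic mean was 3.85 ± 0.57 (SE) in mTEC (adjusted p = 3.92e-05, edgeR) and 4.04 ± 0.57 (SE) in cTEC (adjusted p = 2.58e-05, edgeR). Tex101, a surface protein of germ cells, had 7, 2 and 2 reads in mTEC, 1 in cTEC and none elsewhere. Acr, the acrosomal protease, had 14 reads in mTEC, 9 in cTEC and 9 outside the thymus, and Spata16 had 3 in mTEC and 1 in colon.

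Sperm tail genes had hardly any reads: Odf1, of the tail fibres, had 1 read and Catsper1, of the sperm calcium channel, had 2, all in mTEC replicate 3. Sperm use their own glycolytic enzymes. Ldhc, the lactate dehydrogenase among them, had 24, 9 and 12 reads in mTEC, 9, 9 and 0 in cTEC, 2 in colon, 3 in lung and none in skin. All mTEC libraries were above all extrathymic ones, with a pooled level 31.4 times (95% interval 12.5 to 101) as high (adjusted p = 0.000799, edgeR). Gapdhs was highest in skin, at 3.29, 2.47 and 1.27 CPM, against 0.704, 0.391 and 0.434 CPM in mTEC, 0.143, 0 and 0 CPM in cTEC and 0.0615, 0.0289 and 0.155 CPM in lung, with no read in colon. Its skin libraries were above all others, and its log2 difference of mTEC from skin was -2.18 ± 0.75 (SE) (adjusted p = 0.0255, edgeR). The pooled mTEC level was 1.18 times (95% interval 0.757 to 1.79) the extrathymic one, with the mTEC libraries above colon and lung and below skin, although the test against the mean of log levels called it higher (adjusted p = 0.0146, edgeR). Gapdhs overlaps Tmem147os on the other strand, which held 906 reads against 126. Its own strand held 3 reads against 274 in cTEC, 8 against 216 in lung and 31 against 229 in mTEC. Over all genes the opposite strand held 5.19% to 11.9% of the sense reads. Gapdhs reads in cTEC and lung thus cannot be told apart from reads placed on the wrong strand. The part of such reads in mTEC was not tested.

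Within the thymus, 6 genes were higher in mTEC than in cTEC (background 15.2%) and none was lower (background 9.45%) in the edgeR quasi-likelihood test. They were Tdrd9, Stra8, Tex11, Sycp1, Acrv1 and Gapdhs, drawn from 5 of the roles. Without the filter 7 were higher (background 9.61%) and none was lower (background 3.71%). With the thymic libraries paired by replicate number 5 of the 6 were called, and Acrv1 was not. DESeq2 called 6 as well, with 5 of the edgeR calls among them. All 3 mTEC libraries were above all 3 cTEC libraries for 17 of the 36 genes (47.2%; background 20.0%). The mean CPM was higher in mTEC for 30 genes and in cTEC for 5, namely Tdrd1, Meiob, Sycp3, Brdt and Zpbp. The share over all genes was not computed for this count. Some of the 30 rest on few reads, as Odf1, Catsper1 and Spata16 with 1, 2 and 3 reads in mTEC. The calls were sensitive to single libraries: 1 remained without cTEC replicate 2, 2 without cTEC replicate 3 and 1 without mTEC replicate 1. The 15 markers of thymocytes and T cells were all read in both groups and summed to 123 to 178 CPM in cTEC, 41.7 to 73.9 CPM in mTEC and 3.18 to 9.41 CPM outside the thymus. Other lists were higher in mTEC. The 7 myeloid markers summed to 98.1 to 192 CPM in mTEC and 44.9 to 63.2 CPM in cTEC, with 2 called higher and 1 lower in mTEC, and the 10 cell cycle genes to 222 to 305 CPM and 92.2 to 143 CPM, with 5 called higher and 0 lower. Of the 6 B cell markers 5 were tested against cTEC, and 2 were higher and 0 lower, with a median log2 difference of 1.22. Pax5, the B lineage factor, was at 7.94, 2.34 and 4.16 CPM in mTEC and 0.904, 0.669 and 0.616 CPM in cTEC (adjusted p = 0.0157, edgeR). The sum of the 6 overlapped, at 18.4 to 59.2 CPM in mTEC and 26.8 to 86.8 CPM in cTEC, and in cTEC was mostly Ighm. The part of these cells in the thymic values was not tested.

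Against skin, the extrathymic group of the same kit, 10 genes were higher in mTEC (background 34.6%) and 1, Gapdhs, was lower (background 22.4%). The 10 were Tdrd1, Tdrd9, Stra8, Spo11, Tex11, Sycp1, Tex14, Acrv1, Zpbp and Ldhc. Without skin replicate 1, where the share of reads outside genes was highest, 14 were higher and 0 lower, and Gapdhs lost its call (adjusted p = 0.0655, edgeR), and without skin replicate 2 there were 11 and 1. Without the filter 16 were higher (background 22.8%) and none was lower (background 9.72%). All mTEC libraries were above all skin libraries for 22 of the 36 genes (61.1%; background 28.3%). In cTEC 7 of the 18 genes tested were higher than in skin (38.9%; background 32.5%), a share near the background. They were Tdrd1, Stra8, Spo11, Tex14, Brdt, Zpbp and Ldhc, and Piwil2 and Gapdhs were lower (background 23.9%). The Piwil2 call rests on skin replicate 3, and its adjusted p in edgeR was 0.827 without that library. Without skin replicate 1 the counts were 7 higher and 2 lower, with Tex14 and Ldhc no longer called, and without skin replicate 2 they were 6 and 2. The part of library quality in these values was not tested. Without the filter 8 of 35 genes were higher (background 19.0%), also near the background, and 2 were lower (background 11.9%). All cTEC libraries were above all skin libraries for 7 of the 36 genes (19.4%; background 19.6%), a share near the background. With skin left out and mTEC set against colon and lung, 11 genes were higher (background 35.9%) and 2, Tex15 and Sycp1, were lower (background 27.0%).

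Most germ cell genes followed 1 order among the mTEC pools. Of the 27 genes with at least 10 reads in mTEC, 20 (74.1%) were lowest in replicate 2 and 21 (77.8%) were highest in replicate 1. Of all 21378 genes with as many reads, 43.1% were lowest in replicate 2 and 38.5% were highest in replicate 1. Aire was lowest in mTEC replicate 2 too, at 242 CPM against 613 and 587 CPM, and Fezf2 was at 277, 214 and 313 CPM. Among the cTEC pools, replicate 3 had no read of 10 genes that were read in both replicate 1 and replicate 2, namely Ddx4, Dazl, Mael, Tdrd6, Meioc, Hormad2, Tex11, Sycp3, Acrv1 and Ldhc, while Tdrd1, Stra8, Spo11, Meiob, Tex14, Prm1, Acr and Zpbp were highest there. The 10 cTEC markers summed to 17727 CPM in that library and to 9007 and 8160 CPM in replicates 1 and 2. Whether these markers and the germ cell genes depend on each other was not tested.

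Other genes of the germ line, from a list of 48 that does not hold the 36, were described by the same fit. Of the 22 with enough reads, 13 were higher and 1 lower in mTEC than in the extrathymic mean (background 35.4% and 23.4%), and 10 were higher and 1 lower in cTEC (background 33.4% and 24.8%). Their median log2 difference was 2.19 in mTEC, or 1.86 with the floor, and 1.11 in cTEC, or 0.76 with the floor. These genes too passed the filter through the group in which they were high, so the counts and medians describe the 22 and not all 48. Summed over the 48, mTEC (52.1 to 68 CPM) overlapped skin (52.6 to 61.2 CPM) and colon (51.6 to 59.3 CPM). In this sum mTEC was above cTEC (38.4 to 44.4 CPM) and lung (27.3 to 38.4 CPM). Stag3, of the meiotic cohesin, was at 5.78, 6.14 and 5.03 CPM in mTEC, 3.67, 4.07 and 2.80 CPM in cTEC and 0.565, 2.30 and 5.28 CPM in skin, and at most 0.491 CPM in colon and lung, a log2 difference in mTEC of 3.79 ± 0.46 (SE) (adjusted p = 5.61e-06, edgeR). Izumo1, with which sperm bind the egg, was at 8.09, 7.15 and 7.37 CPM in mTEC and at most 1.70 CPM in every other library, with a log2 difference of 3.93 ± 0.53 (SE) (adjusted p = 1.76e-05, edgeR). Piwil4, the third PIWI protein, was not read in skin, and its mTEC level overlapped those of colon and lung. It was at 10.2, 10.1 and 11.1 CPM in colon, 14.4, 10.3 and 8.67 CPM in lung and 11.9, 5.75 and 8.89 CPM in mTEC, and its call as higher (adjusted p = 1.20e-05, edgeR) is against a mean that includes skin without a read. Rec8, the meiotic cohesin kleisin, was lower, with a log2 difference of -1.10 ± 0.30 (SE) (adjusted p = 0.00526, edgeR) and its highest level in skin, at 31.2, 31.4 and 19.4 CPM.

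The known silencers of germ line genes were transcribed in every group. Of 15 such genes, 3 were higher in mTEC than in the extrathymic mean (Uhrf1 by 1.29 ± 0.34 (SE), Dnmt3a and Trim28), 3 were lower (Max, Kdm5c by -0.47 ± 0.09 (SE), and Pcgf6) and 9 did not pass, with a median log2 difference of -0.17. In cTEC 1 was higher and 6 were lower, with a median of -0.39. Over all genes tested, 35.4% were higher and 23.4% lower in mTEC and 33.4% and 24.8% in cTEC, and the difference of the silencers from these shares was not tested. Uhrf1 in mTEC (17.1 to 27.21 TPM) overlapped colon (18.02 to 21.26 TPM), lay below skin replicate 3 (52.45 TPM) and was above lung (0.8 to 1.59 TPM). For Kdm5c TPM went the other way, with mTEC (38.4 to 47.43 TPM) above all colon and lung libraries (25.61 to 32.58 TPM) and overlapping skin. Max, the partner of MGA at the E-box, was at 49, 56.3 and 47.1 CPM in mTEC, 84.2, 97.9 and 81.5 CPM in cTEC and 57.9, 53.3 and 59.1 CPM in skin, and between 84.9 and 104 CPM in colon and lung. Its log2 difference of mTEC from the extrathymic mean was -0.65 ± 0.10 (SE) (adjusted p = 4.52e-05, edgeR), and the mTEC libraries overlapped skin and lay below all cTEC libraries. Of 10 regulators of tissue antigen expression, 4 were higher in mTEC than in the extrathymic mean and 5 were lower, against the same backgrounds. Dnmt3l, a cofactor of germ line DNA methylation, was at 15.2, 5.92 and 12.6 CPM in mTEC, 1.86, 1.28 and 2.13 CPM in cTEC, 0, 0.0884 and 1.70 CPM in skin and at most 0.186 CPM in a colon or lung library. The mTEC libraries were above all others, with a log2 difference from cTEC of 2.67 ± 0.79 (SE) (adjusted p = 0.0237, edgeR). Hipk2, Chd4 and Prkdc are known to act with AIRE. In mTEC they were below the extrathymic mean, by log2 differences of -0.73 ± 0.14 (SE), -0.64 ± 0.14 (SE) and -0.53 ± 0.15 (SE) (edgeR adjusted p = 0.000324, 0.00102 and 0.00623). In TPM they were not below each tissue. Prkdc in mTEC (2.28 to 3.26 TPM) was above skin (1.06 to 1.83 TPM) and below colon and lung. Hipk2 in mTEC (14.95 to 18.75 TPM) overlapped skin and colon and was below lung (22.95 to 34.85 TPM). Chd4 in mTEC (61.21 to 74.21 TPM) overlapped skin, colon and lung.

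Marker lists of other cells were read from the same fit, as counts higher and lower in mTEC than in the extrathymic mean, where 35.4% of all genes tested were higher and 23.4% lower. For thymic lists, 9 of 10 cTEC markers were higher and 0 lower, and 11 of 13 mTEC markers were higher and 2 lower. Of the 10 markers each of skin, colon and lung epithelium, 3, 5 and 1 were higher and 1, 4 and 3 were lower. Ciliated cell markers were higher for 6 of 12, Foxj1 among them, and lower for 1, while all 15 thymocyte and T cell markers and all 5 tested B cell markers were higher. Of 7 myeloid markers 4 were higher and 1 was lower, of 6 general epithelial markers 3 were higher and 2 were lower, and of 10 cell cycle genes 1, Cdk1, was higher. The counts for skin and lung epithelium and for the cell cycle lie near or below that background. Csn2 of milk and Lor of the cornified skin layer were among the genes called higher in mTEC. For Lor and Foxj1 that call is against the mean of log levels over 3 tissues. All skin libraries held more Lor (16.28 to 84.07 TPM) than the mTEC libraries (3.22 to 9.61 TPM). All lung libraries held more Foxj1 (39.7 to 78.55 TPM) than the mTEC libraries (11.98 to 23.2 TPM). The colon markers Cdx1, Vil1 and Krt20, also called higher, were below all colon libraries in mTEC. Vil1 was at 267.82 to 309.68 TPM in colon and 5.7 to 12.23 TPM in mTEC. Sftpd, the 1 lung marker called higher, was at 259.4 to 577.33 TPM in lung and 10.75 to 21.65 TPM in mTEC. Against skin alone, all 10 skin markers were lower in mTEC.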

How the data were processed

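RNA was measured in 15 libraries in 5 groups of 3. Per the submitters' processing notes, reads were handled with bcl2fastq 2.20, STAR 2.5.1b, RSEM 1.2.28 and the GRCm38 build. The sources used here give no annotation release. The authors deposited read counts per gene by strand, of which the sense-strand counts were used, and RSEM tables with expected counts, TPM and gene and transcript length in bases. All 36 germ cell genes were found by symbol, and they and all lists were chosen with earlier results of these data known.

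Counts were fitted with edgeR 4.0.16 (R 4.3.3, limma 3.58.1; TMM scaling, filterByExpr by group, quasi-likelihood F-test, 1 model over 5 groups), and p-values were adjusted by Benjamini-Hochberg over 19107 genes, with a threshold of 0.05. CPM are TMM-scaled. Genes with a group at 0 reads are given as multiples of a floor of 3 reads, or as ratios of pooled reads with exact 95% intervals. The multiples leave out the counting error of the reads that were found. The fit was tested on simulated data. Detection was also computed at 12946533 reads, the smallest library. DESeq2 1.42.0, other scalings and filters, RSEM expected counts (rounded), unstranded counts and leaving out each library were alternatives. Skin left out of the contrast was added after the data were seen. Python 3.11.15, pandas 2.3.3, scipy 1.17.1 and matplotlib 3.10.9 were used.

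All 36 genes could be named, with every library given for those with at least 50 reads in a group. From other lists up to 3 genes per direction with the smallest p were eligible, and Aire and Fezf2 always. No replicates were alike within sampling noise. Replicate numbers come from the titles. Deviations from the group mean correlated between same-numbered cTEC and mTEC libraries in all 3 pairs (r = 0.156 to 0.29, each best with its own number), which was taken as pairing, and a fit with the number as a block on the thymic libraries was added after the data were seen. In the other pairs of groups, 1 of the same-numbered correlations was above 0.1.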

Additional observations from a re-analysis of the deposited data

Results flagged for a closer look

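Reads on the strand opposite to a germ cell gene were outside the comparisons, and for 3 genes they outnumbered the sense reads. Sycp3 had 3353 reads on the opposite strand, where Chpt1 overlaps it, and 69 on its own: lung held 2214 of the opposite reads, colon 976, cTEC 103, mTEC 45 and skin 15. Gapdhs had 906 reads on the opposite strand, where Tmem147os lies, and 126 on its own. In skin, its highest group, 84 reads were on its own strand and 114 opposite, against 31 and 229 in mTEC and 3 and 274 in cTEC. Meioc had 56 reads on the opposite strand and 14 on its own.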

How the results depend on the processing

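Counts of the 36 genes called changed with the filter on low counts and with single libraries. Without a filter, 23 genes in place of 14 differed between mTEC and the extrathymic mean, all 23 higher, with 13 of the 14 among them. In a fit of the compared groups alone, 3 genes in place of 9 differed between cTEC and skin, with 8 genes tested. Leaving out each library in turn gave 10 to 16 genes for mTEC against extrathymic, 9 to 12 for cTEC against extrathymic, 1 to 5 for mTEC against cTEC, 10 to 15 for mTEC against skin and 7 to 9 for cTEC against skin. The replicate block gave 14, 12, 5, 12 and 8 genes in the same order, against 14, 12, 6, 11 and 9. Between cTEC and mTEC, whose libraries deviated together by number, the replicate block on the thymic libraries alone gave 5 genes: Acrv1 lost its call (adjusted p = 0.0549, edgeR) and the other 5 kept it. The remaining groups share only numbers, with correlations of -0.0636 to 0.114. There the block took the call from Ldhc and Tex14 in cTEC against skin. No direction reversed. In alternatives that still tested them, genes called in the main fit kept the call 792 times and lost it 75 times. These counts, and those of lost calls per gene, leave out genes that an alternative no longer tested. The filter at 1 CPM kept 11 of the 14 calls in mTEC against extrathymic. Tex15 in mTEC against extrathymic lost its call in 11 alternatives (adjusted p 0.0535 to 0.135, edgeR), Acrv1 in mTEC against cTEC in 9, Ldhc and Tex14 in cTEC against skin in 8 and 7, and Gapdhs in mTEC against skin in 6. Tnp2 in cTEC lost it without cTEC replicate 1 (adjusted p = 0.134, edgeR). The mean number of genes per library was 32.7 in mTEC, 22 in cTEC, 20.3 in lung, 18 in colon and 8.67 in skin. With at least 3 reads required it was 27 in mTEC, 10 in colon and 14 in lung. With at least 10 it was 16 in mTEC, 8.67 in cTEC, 7.67 in lung, 5.33 in colon and 3.33 in skin. At the smallest depth it was 14.3 in colon and 15.6 in lung, and with unstranded counts 21 in colon. For genes with few reads the depth limits what could be detected, and intervals cover counting error only. The cause of these changes was not tested.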
